A study of Homo sapiens with 9 samples.

Results

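TGF-beta and BMP response genes are followed here through 10 named members: the ligands BMP2 and BMP4, the receptor TGFBR2, the inhibitory SMADs SMAD6 and SMAD7, the co-repressor SKIL, and the response genes ID1, ID2, ID3 and TGFBI. Members were taken by gene symbol, with every probe set that the array annotation assigns to 1 of these genes alone, which gave 20 probe sets of 54675 on the array and 10 genes of 19775. The rule itself uses no measured value. The cells were HT-29, an established human colon cancer line, and each group held 3 separate cultures with 1 Affymetrix U133 Plus 2.0 array per culture. Cultures received DMSO vehicle alone (0 µM), 5 µM or 10 µM 5-Aza-deoxycytidine (5-Aza) for 5 days, so that the 3 groups differed in the dose of 1 agent. 5-Aza is a cytidine analog that is built into DNA and traps DNA methyltransferases, and the comparisons ask which of these genes differed in signal after its use.

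TGF-beta and BMP ligands bind paired type I and type II serine/threonine kinase receptors at the cell surface. The receptors phosphorylate SMAD2 and SMAD3, or SMAD1, SMAD5 and SMAD9, which join SMAD4 and enter the nucleus to regulate targets such as the ID genes, and SMAD6, SMAD7 and SKIL feed back on the same route. In the colon the pathway restrains epithelial growth, and HT-29 is known as a line that lacks functional SMAD4 protein, which limits it as a model of SMAD4-dependent responses.

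At 5 µM 5-Aza, ID1 and BMP4 fell more than 2-fold, TGFBR2 fell by less than 2-fold, and ID2 and TGFBI rose by less than 2-fold. At 10 µM, ID1 was again more than 2-fold below the vehicle and TGFBI was again above it, whereas the differences of BMP4 and ID2 from the vehicle did not pass the test. Set directly against 5 µM, the 10 µM cultures had more BMP4 and TGFBR2 and less ID2. BMP2, SMAD6, SMAD7 and the representative probe set of SKIL passed in no comparison of the main fit, and ID3 was too dim to test. Signals are given as log2 values. The brightest probe set stood for each gene in a limma fit over 11756 testable genes, and a gene is described as risen or fallen where the adjusted p was 0.05 or lower. It is described as called where the change also exceeded 2-fold. The arrays were bulk extracts, in which fewer cells with a transcript and less transcript per cell cannot be told apart.

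**Figure D1:**
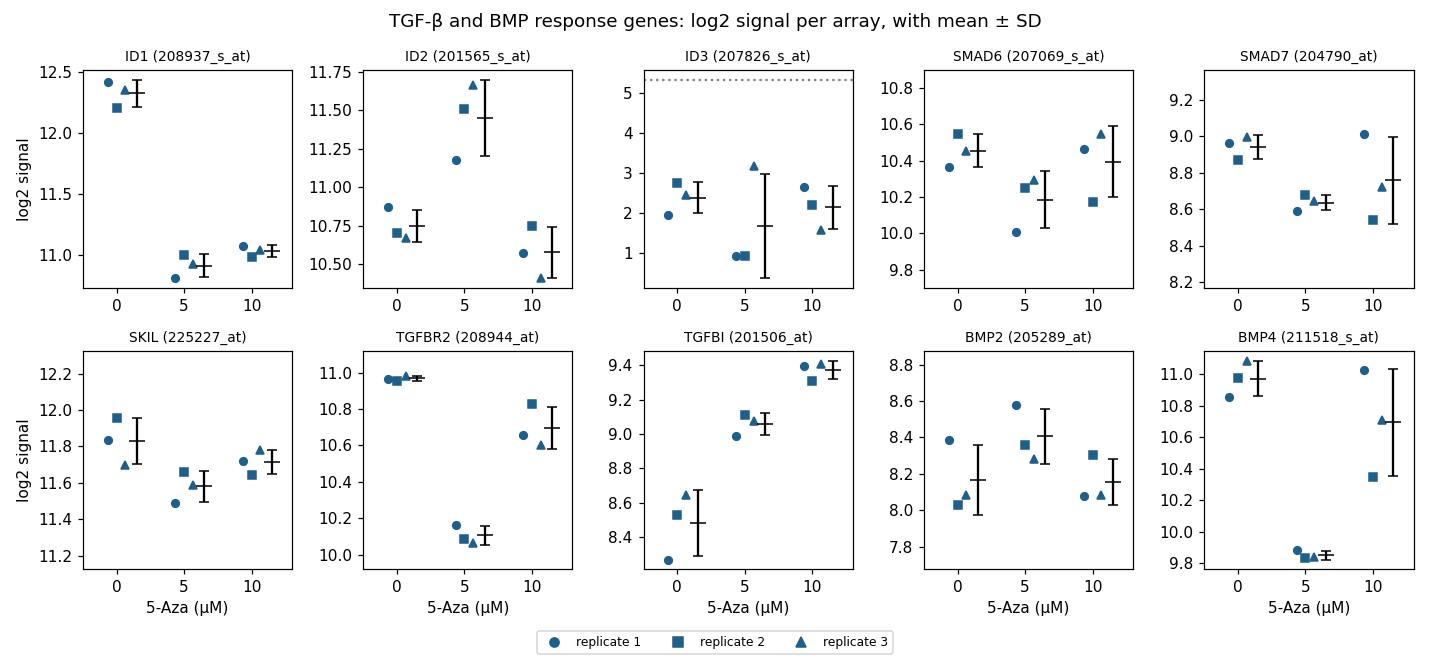
log2 signal (vertical axes) of the probe set representing each of the 10 genes on each of 9 arrays (points, shaped by replicate number), grouped by 5-Aza dose in µM (horizontal axes), with bars at the group means and error bars of 1 SD over 3 arrays; axes do not start at 0, and the dotted line for ID3 is the mean floor. ID1 lay near 11 at both doses against more than 12 in vehicle, BMP4 and TGFBR2 were lowest at 5 µM, ID2 was highest at 5 µM, and ID3 lay below 4 on every array.

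The sequences around the starts of the 5 genes that passed the test are shown first, because CpG dinucleotides are the sites at which DNA methyltransferases act. They are RefSeq windows of GRCh38.p14 that run from 250 bases before to 50 bases after a gene's start, printed 5′ to 3′ on the gene's strand in lower case with each CpG in capitals. No methylation was measured on these arrays.
ID1 (chr20:31605039-31605338, plus strand): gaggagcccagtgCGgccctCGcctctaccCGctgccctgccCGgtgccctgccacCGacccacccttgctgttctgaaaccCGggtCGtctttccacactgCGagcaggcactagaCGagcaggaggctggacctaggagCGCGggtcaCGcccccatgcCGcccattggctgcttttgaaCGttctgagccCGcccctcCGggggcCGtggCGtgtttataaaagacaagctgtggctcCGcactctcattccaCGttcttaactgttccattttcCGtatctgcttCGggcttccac
ID2 (chr2:8681806-8682105, plus strand): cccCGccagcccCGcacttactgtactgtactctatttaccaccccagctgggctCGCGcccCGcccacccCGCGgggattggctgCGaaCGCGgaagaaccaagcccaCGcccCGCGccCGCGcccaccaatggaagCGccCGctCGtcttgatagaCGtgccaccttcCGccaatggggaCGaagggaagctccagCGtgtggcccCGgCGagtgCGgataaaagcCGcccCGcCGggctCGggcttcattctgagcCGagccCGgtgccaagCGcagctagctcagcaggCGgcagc
TGFBI (chr5:136028738-136029037, plus strand): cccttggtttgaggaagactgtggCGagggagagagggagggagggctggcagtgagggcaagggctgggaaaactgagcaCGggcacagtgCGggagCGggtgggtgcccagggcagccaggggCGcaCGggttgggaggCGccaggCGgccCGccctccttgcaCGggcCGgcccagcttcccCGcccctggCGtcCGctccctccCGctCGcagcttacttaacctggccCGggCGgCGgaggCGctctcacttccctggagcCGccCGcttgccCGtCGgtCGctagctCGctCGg
TGFBR2 (chr3:30606351-30606650, plus strand): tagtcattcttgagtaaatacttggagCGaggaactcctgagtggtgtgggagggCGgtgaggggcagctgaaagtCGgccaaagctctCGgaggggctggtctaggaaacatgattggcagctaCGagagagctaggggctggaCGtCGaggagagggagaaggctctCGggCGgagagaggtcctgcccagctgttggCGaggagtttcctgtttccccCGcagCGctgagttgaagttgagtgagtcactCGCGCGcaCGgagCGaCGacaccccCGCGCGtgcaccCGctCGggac
BMP4 (chr14:53955001-53955300, minus strand): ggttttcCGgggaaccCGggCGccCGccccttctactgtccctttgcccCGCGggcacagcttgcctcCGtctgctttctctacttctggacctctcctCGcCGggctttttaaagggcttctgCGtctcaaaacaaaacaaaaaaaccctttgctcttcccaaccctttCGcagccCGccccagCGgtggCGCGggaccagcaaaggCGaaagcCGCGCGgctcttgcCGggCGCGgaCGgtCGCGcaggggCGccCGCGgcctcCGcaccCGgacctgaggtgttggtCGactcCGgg
The table held 14 windows for 9 of the members, among 35116 windows of 300 bases with a median of 14 CpGs. The ID1 window held 22 CpGs, more than 62.3% of all windows, the ID2 window 33 (82.8%) and the TGFBI window 27 (71.8%). For TGFBR2 and BMP4, which have several starts, the window with the most CpGs is shown. TGFBR2 had 23 CpGs in the window shown (64.2%) and 8 in its other window (39.3%), and BMP4 had 32 in the window shown (81.1%) with 23 and 30 in its other windows. The windows shown had more CpGs than the median window for genes that fell and for genes that rose. For TGFBR2 this followed from the choice of window, since its other window had fewer CpGs than the median. SKIL, whose representative probe set did not pass, had the most CpGs of the members, 52 (99.2%).

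Motifs that SMAD proteins are known to bind were counted on both strands of the same windows. The palindrome GTCTAGAC was found in 71 of the 35116 windows (0.202%) and, among the members, in SMAD6 alone. It is shown because it begins 12 bases before the SMAD6 start, at the capitals of the 30 bases below, with the rest in lower case.
SMAD6 (chr15:66702213-66702242, plus strand): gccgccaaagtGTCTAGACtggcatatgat
The shorter box GTCTG was in 45.3% of all windows and in 7 of the 14 member windows, which belonged to ID3, SMAD7, SKIL and BMP4. The GC-rich element GGCGCC was in 19.2% of all windows and in 3 of the 14, which belonged to SKIL, TGFBI and BMP4. The palindrome and the box share their first 4 letters, and neither holds the other. These matches describe the letters only.

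Some facts of the arrays bear on every value. Array medians ranged over 5.07 to 5.52 and were lowest in vehicle, and scaling all arrays to 1 median moved the median of all genes by −0.27 at 5 µM and by −0.28 at 10 µM. The log2 gap between 3′ and 5′ probe sets for actin, a measure of RNA integrity and labelling, was 2.09 ± 0.19 at 0 µM, 2.59 ± 0.10 at 5 µM and 2.98 ± 0.17 at 10 µM (SD, n = 3 each; exact permutation test over 1680 arrangements, adjusted p = 0.00536). With that gap as a covariate, 1 of the 11 differences of the members that passed still did so, ID1 at 5 µM against 0 µM (−1.42 ± 0.20, adjusted p = 0.00865), and the other 10 did not. The gap followed the dose, so its part in the results cannot be told apart from that of the dose. The 18S rRNA 5′ control signal stood apart in 10 µM replicates 2 and 3, at 13.45 and 13.60, against 11.77 to 12.56 on the other arrays. Of 15 colon epithelial markers 12 were above the floor on all 9 arrays, with summed linear signals of 102006 to 105333 at 0 µM, 73357 to 81591 at 5 µM and 64882 to 76151 at 10 µM, while CDX1 and CDX2 were below it on all 9. Of 13 fibroblast and endothelial markers 3 were above the floor on all 9 arrays (COL1A1, LUM and PECAM1) and 7 below it on all 9. Their summed signals were 401 to 510 at 0 µM, 1194 to 1309 at 5 µM and 747 to 911 at 10 µM. Of 8 blood cell markers on the array, CD14 and LYZ were above the floor on all 9 arrays and PTPRC, CD3D and MS4A1 below it on all 9, with sums of 12914 to 13737 at 0 µM, 9026 to 10207 at 5 µM and 10783 to 11851 at 10 µM. The part of these markers in the results was not tested.

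Of the 10 genes, 9 could be tested. In the 5 µM against 0 µM comparison 2 of the 9 were called, both lower, where 9.92% of all tested genes were called and 1.32% were called lower. By adjusted p alone 2 were higher and 3 lower, beside 20.2% and 13.3% of all genes. The 3 arrays of 1 dose did not overlap those of the other for 8 of the 9 members, against 56.4% of all genes. The median change of the 9 was −0.27, against 0.04 for all tested genes. In the 10 µM against 0 µM comparison 1 of the 9 was called, lower, where 7.58% of all genes were called and 1.5% called lower. By adjusted p alone 1 was higher and 2 lower, beside 19.8% and 13.3% of all genes. The groups did not overlap for 3 of the 9 against 44.5% of all genes, and the medians were −0.17 for the members and 0.05 for all genes. In the 10 µM against 5 µM comparison limma called 0 members, with 4 at an unadjusted p of at most 0.05, where 2.35% of all genes were called. A per-gene test without shared variance, which the study's methods also name, called 0 as well. By adjusted p alone 2 members were higher and 1 lower, beside 6.93% and 8.92% of all genes, and the groups did not overlap for 4 of the 9 against 35.9%. The 3 comparisons share arrays and are not independent of each other. Of the 14 tested probe sets of these genes, adjusted over all 27141, 1 was called higher and 2 lower at 5 µM against 0 µM, beside 7.56% of all probe sets. At 10 µM against 0 µM 1 was called lower, and 1, a SKIL set that did not reach the floor in any vehicle culture, was called higher by its fitted value but exceeded the floor by less than 2-fold, beside 7.01%. At 10 µM against 5 µM limma called 0, with 5 at an unadjusted p of at most 0.05, beside 1.92%.

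**Figure D2:**
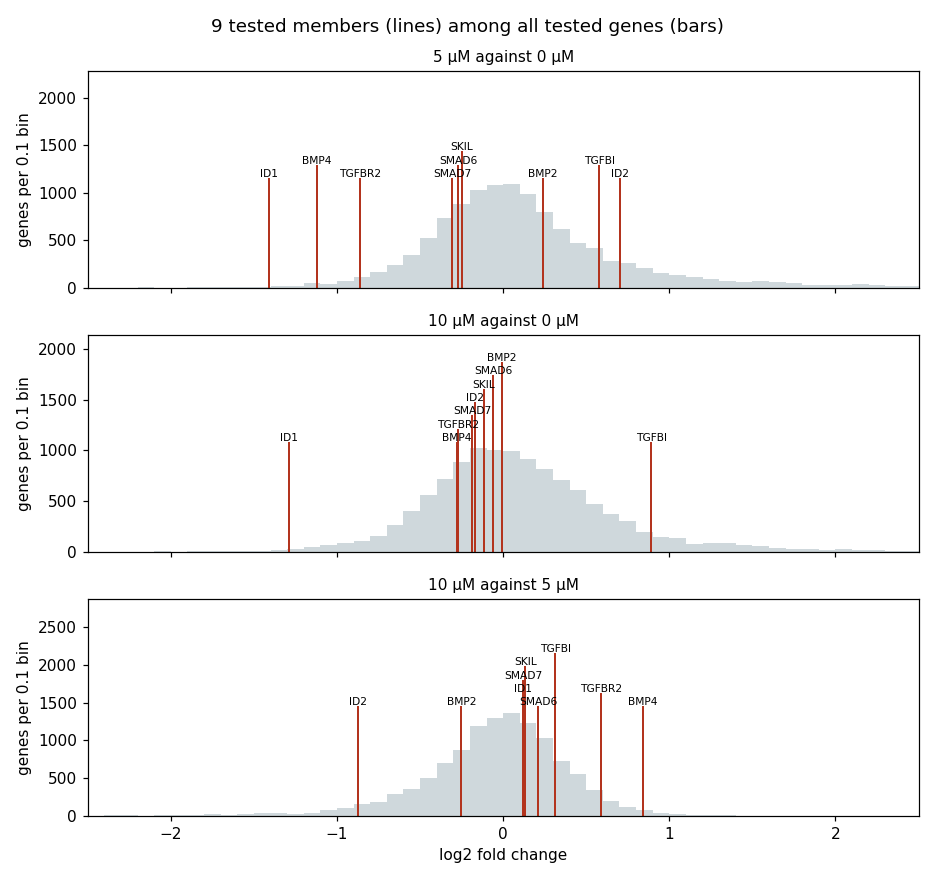
Counts of all 11756 tested genes per 0.1 of log2 fold change (bars) in the 3 comparisons (panels, top to bottom: 5 µM with vehicle, 10 µM with vehicle, then the higher with the lower dose), with the 9 tested members as lines whose height has no meaning. ID1 and BMP4 stand at −1.41 and −1.12 in the top panel, and ID1 and TGFBI at −1.29 and 0.89 in the middle panel.

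BMP4 is a secreted BMP ligand that acts on the type I and type II BMP receptors. Its only probe set (211518_s_at) read 10.86, 10.97 and 11.08 in the 0 µM cultures, 9.89, 9.83 and 9.84 in the 5 µM cultures, and 11.03, 10.35 and 10.71 in the 10 µM cultures. All 5 µM arrays lay below all others, whereas the 10 µM arrays overlapped those of the vehicle. BMP4 averaged 9.85 ± 0.03 at 5 µM and 10.97 ± 0.11 at 0 µM (SD, n = 3 each), a log2 change of −1.12 ± 0.16 (SE; limma, adjusted p = 0.00111), or 2.17-fold lower. With the actin measure as a covariate the value was −1.14 ± 0.33 and was no longer called (adjusted p = 0.0912).

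At 10 µM BMP4 averaged 10.69 ± 0.34, with a log2 difference of −0.28 ± 0.16 from the vehicle (95% interval −0.64 to 0.09; adjusted p = 0.21). That difference passed with equal array medians (−0.55, adjusted p = 0.0175), with array weights (−0.24, adjusted p = 0.0473) and without 10 µM replicate 1 (−0.44, adjusted p = 0.0379), and without 10 µM replicate 2 it was −0.10 (adjusted p = 0.516). Against 5 µM it was 0.84 ± 0.16 higher, or 1.79-fold (adjusted p = 0.0127). The 10 µM group was the most spread of the BMP4 groups, and its low array was replicate 2. Without 10 µM replicate 2 the difference from 5 µM was 1.02 and was called, and without replicates 2 and 3 together it was 1.17. Without 5 µM replicate 3 it was 0.84 and missed the threshold (adjusted p = 0.0537).

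BMP2, a related ligand, has a pair of probe sets. The representative one (205289_at) spanned 8.03 to 8.39 at 0 µM, 8.28 to 8.58 at 5 µM and 8.08 to 8.30 at 10 µM, so that every group overlapped another. Its log2 difference was 0.24 ± 0.13 at 5 µM against 0 µM (95% interval −0.06 to 0.54; adjusted p = 0.196) and −0.01 ± 0.13 at 10 µM against 0 µM (−0.31 to 0.29; adjusted p = 0.963). At 10 µM against 5 µM it was −0.25 ± 0.13 (adjusted p = 0.228). The second set (205290_s_at) gave 0.27 at 5 µM and 0.19 at 10 µM against 0 µM and did not pass either (adjusted p = 0.186 and 0.322 over 27141 probe sets).

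TGFBR2 is the type II receptor that binds TGF-beta and activates the type I receptor. Its representative probe set (208944_at) read 10.97, 10.96 and 10.98 at 0 µM, 10.17, 10.09 and 10.07 at 5 µM, and 10.66, 10.83 and 10.61 at 10 µM. The 3 groups did not overlap, with 5 µM lowest and vehicle highest. At 5 µM TGFBR2 averaged 10.11 ± 0.05, against 10.97 ± 0.01 at 0 µM, a log2 change of −0.86 ± 0.09 (adjusted p = 0.00024), or 1.82-fold lower and short of the 2-fold threshold. Scaled to equal array medians the change was −1.13, past that threshold. The change did not pass the adjusted p of 0.05 with the actin covariate (−0.79, adjusted p = 0.0511) or as the mean of both probe sets (−0.93, adjusted p = 0.149).

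At 10 µM TGFBR2 averaged 10.70 ± 0.11, a log2 difference of −0.27 ± 0.09 from vehicle that passed narrowly (adjusted p = 0.0488). This pass did not hold when adjusted over all probe sets (adjusted p = 0.0789), with the replicate number as a block (0.0751), or without any single array other than 10 µM replicate 2, and without 10 µM replicate 3 the adjusted p was 0.148. Against 5 µM the 10 µM cultures were 0.59 ± 0.09 higher, or 1.5-fold (adjusted p = 0.0064). The other TGFBR2 probe set (207334_s_at) was above the floor on 1 array, spanned 2.00 to 5.81, and was not tested.

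SMAD7 and SMAD6 are inhibitory SMADs, of which SMAD7 blocks TGF-beta and BMP receptors and SMAD6 mainly BMP signalling. SMAD7 (204790_at) read 8.96, 8.87 and 8.998 at 0 µM, 8.59, 8.68 and 8.65 at 5 µM, and 9.02, 8.54 and 8.72 at 10 µM. The 5 µM arrays lay below all vehicle arrays, but the log2 difference of −0.31 ± 0.13 did not pass (95% interval −0.59 to −0.02 before adjustment; adjusted p = 0.0917). At 10 µM against 0 µM it was −0.18 ± 0.13 (adjusted p = 0.281), and at 10 µM against 5 µM 0.12 ± 0.13 (adjusted p = 0.54). Against 0 µM the SMAD7 difference passed in 7 of 22 alternative fits at 5 µM (lowest adjusted p = 0.00648). At 10 µM it passed in 3 of 23 (lowest adjusted p = 0.0189).

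SMAD6 was measured by 4 probe sets, of which 1 was bright enough to test. That set (207069_s_at) read 10.37, 10.55 and 10.45 at 0 µM, 10.01, 10.25 and 10.30 at 5 µM, and 10.46, 10.17 and 10.55 at 10 µM. The 5 µM arrays lay just below those of the vehicle, and the 10 µM arrays overlapped both. Its log2 difference was −0.27 ± 0.13 at 5 µM (95% interval −0.56 to 0.02; adjusted p = 0.142) and −0.06 ± 0.13 at 10 µM (−0.35 to 0.23; adjusted p = 0.743), both against 0 µM. The other 3 sets, 213565_s_at, 209886_s_at and 209887_at, were above the floor on 5, 2 and 0 arrays and spanned 0.93 to 6.53 in all. SMAD6 did not pass at either dose against 0 µM in the main fit, and passed at 5 µM in 1 of 20 alternative fits (adjusted p = 0.0126).

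SKIL encodes SnoN, a co-repressor that binds SMAD proteins and is itself induced by TGF-beta. Its 5 probe sets did not move alike. The representative set (225227_at) read 11.84, 11.96 and 11.70 at 0 µM, 11.49, 11.66 and 11.59 at 5 µM, and 11.72, 11.64 and 11.78 at 10 µM. Every 5 µM array was below every vehicle array, yet the log2 difference of −0.25 ± 0.10 did not pass (adjusted p = 0.089), and at 10 µM against 0 µM it was −0.12 ± 0.10 (adjusted p = 0.402).

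A second SKIL set (206675_s_at) went the other way. It read 7.76, 7.50 and 7.69 at 0 µM, 8.18, 8.04 and 8.16 at 5 µM, and 8.39, 8.13 and 8.32 at 10 µM, with all treated arrays above all vehicle arrays. It rose by 0.48 ± 0.12 at 5 µM (adjusted p = 0.0223) and by 0.63 ± 0.12 at 10 µM against 0 µM (adjusted p = 0.00776, both over 27141 probe sets). Another set (215889_at) read 5.58, 5.71 and 5.90 at 10 µM, against 5.04, 4.94 and 4.02 at 0 µM. It reached the floor on 0 of 3 vehicle arrays, 2 of 3 at 5 µM and 3 of 3 at 10 µM, so a bound is given: its signal at 10 µM exceeded the vehicle by at least 1.5-fold (fitted change, adjusted p = 0.029). The set 217591_at gave 0.05 at 5 µM and 0.37 at 10 µM against 0 µM without passing (adjusted p = 0.925 and 0.365), and 232379_at was below the floor on all 9 arrays. The files do not say which SKIL transcripts each set detects, so no single direction is given for SKIL.

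**Figure D3:**
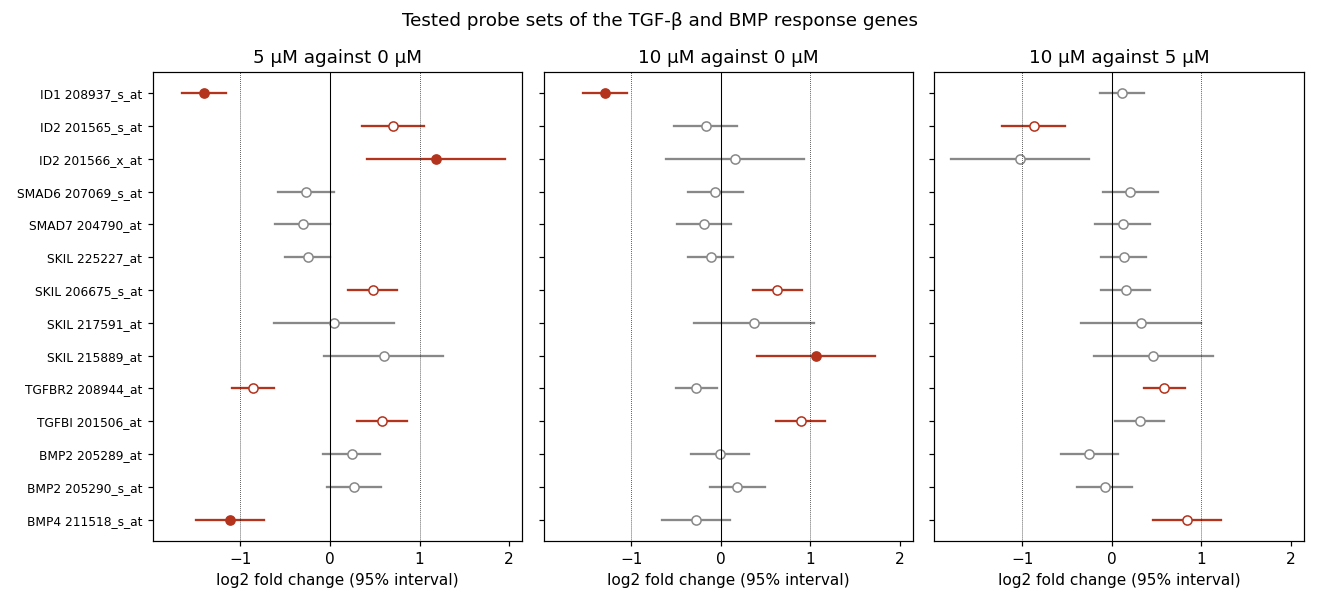
log2 fold change with 95% interval (horizontal axis) of each of the 14 tested probe sets of the 9 tested genes (rows) in the 3 comparisons, with called sets filled, sets passing by adjusted p alone in open red, the rest in open grey, and dotted lines at 2-fold. The value of SKIL set 215889_at is the fitted one, not its bound. The SKIL sets 225227_at and 206675_s_at lie on opposite sides of 0 at 5 µM (−0.25 and 0.48), and the ID2 sets lie on the same side there (0.70 and 1.18).

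ID1 is an inhibitor of basic helix-loop-helix transcription factors and a direct target of BMP-activated SMADs. Its probe set (208937_s_at) read 12.42, 12.21 and 12.36 at 0 µM, 10.81, 11.01 and 10.93 at 5 µM, and 11.08, 10.99 and 11.05 at 10 µM. Every treated array was more than 1 log2 unit below every vehicle array. At 5 µM ID1 averaged 10.92 ± 0.10, against 12.33 ± 0.11 at 0 µM, a log2 change of −1.41 ± 0.10 (adjusted p = 2.62e-05), or 2.66-fold lower. At 10 µM it averaged 11.04 ± 0.05, a log2 change of −1.29 ± 0.10 from vehicle (adjusted p = 0.000117), or 2.45-fold lower.

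The 10 µM and 5 µM cultures overlapped in ID1 and differed by 0.12 ± 0.10 (95% interval −0.10 to 0.34; adjusted p = 0.431). ID1 was called in the 5 µM against 0 µM comparison in all 9 fits that left out 1 array, and likewise at 10 µM. With the actin covariate, which itself follows the dose, the 10 µM value was −1.30 ± 0.33 and did not pass (adjusted p = 0.251).

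ID2, another inhibitor of helix-loop-helix factors, moved in the other direction from ID1 at 5 µM. Its representative set (201565_s_at) read 10.87, 10.70 and 10.67 at 0 µM, 11.18, 11.51 and 11.66 at 5 µM, and 10.57, 10.75 and 10.41 at 10 µM. The 5 µM arrays were above all others, and the 10 µM arrays overlapped the vehicle. ID2 averaged 11.45 ± 0.25 at 5 µM and 10.75 ± 0.11 at 0 µM, a log2 change of 0.70 ± 0.15 (adjusted p = 0.00685), or 1.63-fold higher. With equal array medians that change was 0.44 and did not pass (adjusted p = 0.0819).

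At 10 µM ID2 averaged 10.58 ± 0.17, with a log2 difference of −0.17 ± 0.15 from vehicle (95% interval −0.50 to 0.16; adjusted p = 0.388). Against 5 µM it was −0.87 ± 0.15, or 1.83-fold lower (adjusted p = 0.00799), and without 5 µM replicate 1 it was −1.01 and was called. Without 10 µM replicates 2 and 3 together it was −0.88 and missed the threshold (adjusted p = 0.053). The second ID2 set (201566_x_at) read 7.68, 7.59 and 6.91 at 0 µM, 8.34, 8.5 and 8.89 at 5 µM, and 6.80, 7.78 and 8.08 at 10 µM. It rose by 1.18 ± 0.34 at 5 µM against 0 µM and was called over all probe sets (adjusted p = 0.0355). Its difference of −1.02 ± 0.34 at 10 µM against 5 µM did not pass (adjusted p = 0.0946). The suffix of this set marks probes that can match other sequences, so its level is less certain.

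ID3, the third ID gene listed, was below the floor on all 9 arrays, spanning 0.93 to 3.17 (207826_s_at), and was not tested. A change in ID3 was not detectable with this probe set.

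TGFBI encodes a secreted extracellular matrix protein that TGF-beta induces. Its probe set (201506_at) read 8.27, 8.53 and 8.65 at 0 µM, 8.99, 9.11 and 9.08 at 5 µM, and 9.40, 9.31 and 9.41 at 10 µM. The 3 groups did not overlap, with vehicle lowest and 10 µM highest. At 5 µM TGFBI averaged 9.06 ± 0.06, against 8.48 ± 0.19 at 0 µM, a log2 change of 0.58 ± 0.11 (adjusted p = 0.00506), or 1.49-fold higher. At 10 µM it averaged 9.37 ± 0.05, a log2 change of 0.89 ± 0.11 from vehicle (adjusted p = 0.000901), or 1.85-fold higher.

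The step in TGFBI between 10 µM and 5 µM, 0.31 ± 0.11, did not pass (adjusted p = 0.0917). With equal array medians the 5 µM change was 0.31 (adjusted p = 0.107), whereas the 10 µM change passed in 22 of 23 alternatives, both scalings included. The exception was the actin covariate, with which the 5 µM change was 0.29 (adjusted p = 0.454) and that at 10 µM 0.38 (adjusted p = 0.843).

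Among the other tested genes, those whose signals ran most like ID1 over the 9 arrays were TFPI, a secreted inhibitor of the coagulation start (Pearson r = 0.996), and DENND5B (r = 0.991). TFPI averaged 12.14 at 0 µM, 10.71 at 5 µM and 10.89 at 10 µM. Those most like BMP4 were PLAUR, the urokinase receptor (r = 0.992), and RNF43, a ubiquitin ligase that removes Wnt receptors (r = 0.986). PLAUR averaged 10.70, 9.99 and 10.48, and RNF43 11.29, 10.59 and 11.22, at 0, 5 and 10 µM. The points of each coefficient share the 3 dose groups and the arrays, and the coefficients are given as a description.

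A list of 104 other TGF-beta and BMP pathway genes held 97 on the array and 69 that could be tested. At 5 µM against 0 µM 13 of the 69 were called higher and 0 lower, where limma called 8.6% of all genes higher and 1.32% lower. By adjusted p alone 21 were higher and 6 lower, beside 20.2% and 13.3% of all genes. Of the 13, 5 (ACVR1C, BMPR1B, FN1, FSTL3 and LEFTY1) did not reach the floor in any vehicle culture and entered the test through a treated group, so that they could hardly be called lower. ENG and TGFB3 reached it on 1 of 3 vehicle arrays and also entered through a treated group. For LEFTY1 the bound was under 2-fold. With low signals raised to the floor TGFB3 was 0.95 higher, short of 2-fold, and 10 of the 69 were called higher. The list's median log2 change was 0.15. By role, 4 of 10 tested ligands, 3 of 12 receptors, 0 of 7 signal-transducing SMADs, 2 of 9 extracellular antagonists and latent binding proteins, 0 of 15 intracellular inhibitors and repressors, and 4 of 16 known targets were called higher. All the called receptors, the ligands TGFB3 and LEFTY1, the antagonist FSTL3 and the target FN1 entered through a treated group, so the counts by role carry the same limit. At 10 µM against 0 µM 6 of the 69 were called higher and 0 lower, where 6.08% of all genes were called higher. ACVR1C and FN1, 2 of these 6, did not reach the floor in any vehicle culture, and TGFB3 reached it on 1 of 3 vehicle arrays. These genes entered the test through a treated group. With low signals raised to the floor ACVR1C was 0.45 higher, short of 2-fold, and 4 of the 69 were called higher. The list's median log2 change was 0.07 here, and by adjusted p alone 13 were higher and 11 lower, beside 19.8% and 13.3% of all genes. At 10 µM against 5 µM 0 were called higher and 3 lower (2 with low signals raised to the floor), where 2.08% of all genes were called lower. The median was −0.24, with 12 lower and 3 higher by adjusted p alone, beside 8.92% and 6.93% of all genes. BMPR1B, 1 of the 3 called lower, was below the floor on all 10 µM arrays and entered through the 5 µM group. Scaled to equal array medians, 11 were called higher and 1 lower at 5 µM and 4 higher and 1 lower at 10 µM against 0 µM, and the medians were −0.11 and −0.21, below 0 as were those of all genes, −0.22 and −0.23.

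**Figure D4:**
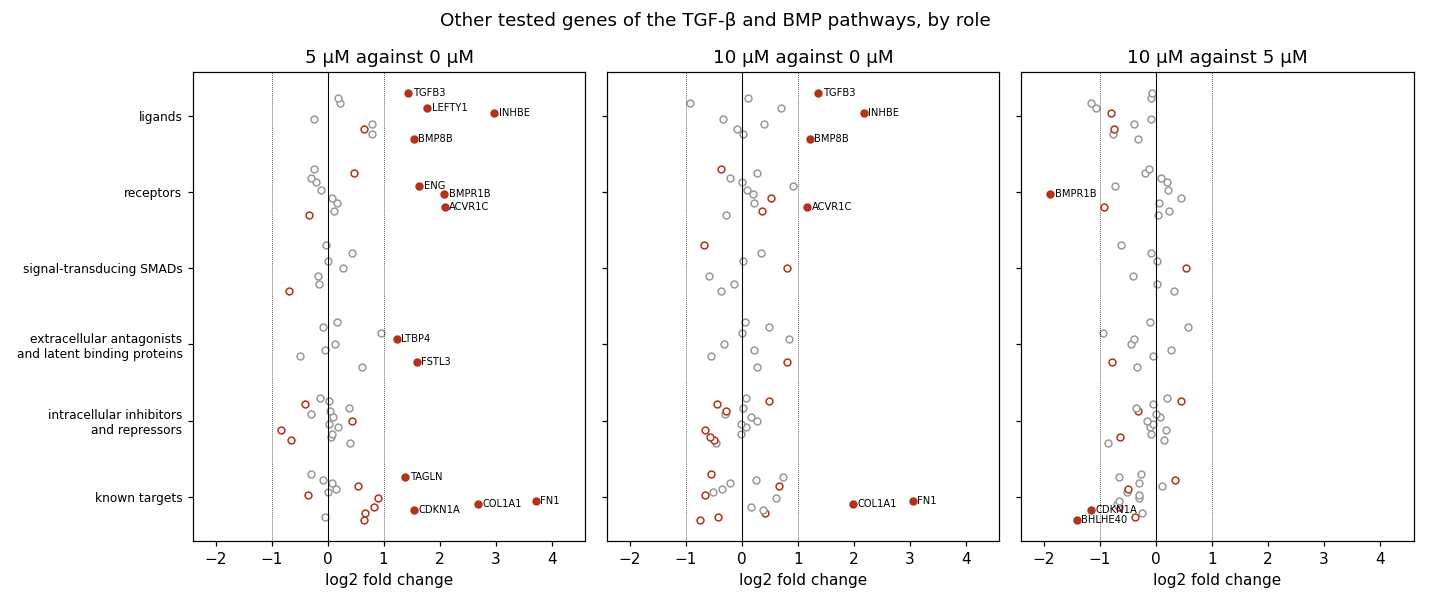
log2 fold change (horizontal axis) of the 69 tested TGF-beta and BMP pathway genes other than the members (points) by role (rows) in the 3 comparisons, with called genes filled and named, those passing by adjusted p alone in open red, the rest in open grey, and dotted lines at 2-fold. The value of genes such as FN1 that lie below the floor in 1 group is the fitted one, not the bound. INHBE is farthest right among the ligands at both doses, and no gene of the list was called lower against vehicle.

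The pathway genes with the smallest p at 5 µM were led by INHBE, an inhibin beta subunit that forms activin E. INHBE read 11.10, 11.30 and 11.21 at 5 µM, against 8.21, 8.34 and 8.14 at 0 µM, a log2 change of 2.97 ± 0.10 (adjusted p = 9.75e-07). At 10 µM it was 2.17 ± 0.10 above vehicle (adjusted p = 1.92e-05). The ligand BMP8B rose by 1.53 ± 0.18 at 5 µM (adjusted p = 0.000408) and by 1.22 ± 0.18 at 10 µM (adjusted p = 0.00188). The ligand TGFB3 reached the floor on 1 of 3 vehicle arrays and on all treated ones. It was 0.88 higher at 10 µM with low signals raised to the floor, short of 2-fold. Raising low signals narrows the spread of the vehicle group, so no adjusted p is given for such a value. INHBE and BMP8B thus rose at 5 µM, where BMP4 fell.

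The type I receptor ACVR1C and the activin antagonist FSTL3 did not reach the floor in any vehicle culture, so a bound is given beside the adjusted p of the fitted change. ACVR1C was at least 2.43-fold higher at 5 µM (adjusted p = 0.00018). At 10 µM it reached the floor on 2 of 3 arrays, so no bound is given for that dose. With low signals raised to the floor ACVR1C was 0.45 higher at 10 µM than in vehicle, short of 2-fold. FSTL3 was at least 2.68-fold higher at 5 µM (adjusted p = 2.87e-05). The BMP receptor BMPR1B was below the floor on all vehicle and all 10 µM arrays. It was at least 2.14-fold higher at 5 µM than in vehicle (fitted change, adjusted p = 0.00247). At 10 µM it was at least 1.76-fold lower than at 5 µM (fitted change, adjusted p = 0.0117).

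Of the 16 tested known targets, 9 were higher and 1 lower by adjusted p at 5 µM against 0 µM, beside 20.2% and 13.3% of all genes. At 10 µM against 0 µM 4 of these targets were higher and 4 lower, beside 19.8% and 13.3%. Among known TGF-beta targets, the collagen gene COL1A1 rose by 2.68 ± 0.26 at 5 µM (adjusted p = 0.00014) and by 1.98 ± 0.26 at 10 µM (adjusted p = 0.00102). COL1A1 is also 1 of the fibroblast markers given above. CDKN1A, the cell cycle inhibitor p21, rose by 1.54 ± 0.16 at 5 µM (adjusted p = 0.000221) and was −1.16 ± 0.16 at 10 µM against 5 µM (adjusted p = 0.00478). BHLHE40, a transcriptional repressor, was −1.41 ± 0.17 at 10 µM against 5 µM (adjusted p = 0.00318). FN1, the matrix protein fibronectin, did not reach the floor in any vehicle culture. At 10 µM its signal was higher by at least 2.06-fold (fitted change, adjusted p = 0.00523).

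None of the carriers SMAD2, SMAD3 and SMAD4 changed more than 2-fold in any comparison. SMAD4, the common partner, read 7.78, 7.81 and 7.80 at 0 µM, 8.12, 7.92 and 8.15 at 5 µM, and 8.63, 8.53 and 8.66 at 10 µM. It rose by 0.81 ± 0.10 at 10 µM against 0 µM (adjusted p = 0.000671) and by 0.54 ± 0.10 at 10 µM against 5 µM (adjusted p = 0.00963), whereas the 0.27 ± 0.10 at 5 µM did not pass (adjusted p = 0.0573). SMAD2 gave −0.16 at 5 µM and −0.14 at 10 µM against 0 µM, and SMAD3 −0.17 and −0.58, none of which passed (adjusted p = 0.477, 0.538, 0.543 and 0.0541). With equal array medians the SMAD3 difference at 10 µM was −0.85 and passed (adjusted p = 0.00694). SMAD3 read 10.99, 10.89 and 10.93 at 0 µM and 10.89, 9.98 and 10.20 at 10 µM. Its low 10 µM arrays were thus replicates 2 and 3, and replicate 1 lay near the vehicle. As controls, DNMT1, the methyltransferase that 5-Aza depletes as protein, rose by 0.67 ± 0.10 at 10 µM (adjusted p = 0.00199) with 0.59 after quantile normalization (adjusted p = 0.00326) and 0.39 with equal array medians (adjusted p = 0.0667). GAPDH fell by 0.46 at 10 µM (adjusted p = 0.0221), with −0.74 under equal array medians (adjusted p = 0.00981) and −0.14 after quantile normalization (adjusted p = 0.354).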

How the data were processed

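Total RNA from 9 HT-29 cultures was hybridised to 1 array each. The authors deposited 1 table of log2 signals. The submitters' processing notes name RMA and affy 1.14.2, but the deposited log2 values are logs of multiples of 0.1 whose 2% trimmed mean is 250 on the linear scale on every array, as in MAS 5.0 output, so the notes and the values differ. Signals were used as deposited. Probe sets were named from the platform annotation: 41089 had 1 gene, 1801 several, 11717 none, and 62 were controls. Of the members, 1 further probe set, shared by ID2 and ID2B, was left out, and 6 probe sets with a missing value were not used. The floor was the median of each array. A gene was tested if its brightest probe set reached the floor on all 3 arrays of a group (11756 genes). Group means of all 9 arrays were fitted with limma 3.58.1 (lmFit, eBayes; R 4.3.3), two-sided, with Benjamini-Hochberg adjustment over all genes, and for each probe set over 27141 probe sets. Calls needed an adjusted p of 0.05 or less with a change above 2-fold. A bound sets the brighter group against the floor, and the adjusted p beside it is that of the fitted change. The scripts were tested on simulated data. The number of arrays limits the precision. Named genes were all members, up to 6 called genes per comparison of the pathway list with the smallest p, SMAD2, SMAD3, SMAD4, DNMT1, GAPDH, and the 2 genes most correlated with each called member. Members and lists were chosen with earlier results of these data known. Alternatives covered scaling, filters, probe set choice, thresholds, array weights, tests, a replicate block, the actin covariate and left-out arrays. Figures were drawn with matplotlib 3.10.9 (Python 3.11.15).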

Additional observations from a re-analysis of the deposited data

How the results depend on the processing

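Of 597 recomputed values of the members' changes, 574 kept direction and side of the 2-fold call, 2 lost the call, 5 gained it and 16 changed sign; no ID1, ID2, TGFBR2 or TGFBI value changed sign. The adjusted p of ID1 passed in 21 of 21 alternatives at 5 µM (highest 0.00865) and 21 of 22 at 10 µM against 0 µM (highest 0.251), that of BMP4 at 5 µM in 20 of 21 (highest 0.0912), and that of TGFBR2 at 10 µM against 0 µM in 5 of 23 (highest 0.953). With the methods' t-test 437 genes were called at 10 µM against 0 µM (main 891; 1 member, ID1) and 114 at 10 µM against 5 µM (main 276; 0 members). Without the fold threshold the counts were 3941 at 5 µM against 0 µM (main 1166), 3893 and 1864, with 5, 3 and 3 members (main 2, 1 and 0). With the actin covariate they were 663, 0 (997 at unadjusted p of at most 0.05) and 12, with 1, 0 and 0 members. Array weights gave 636 genes and 1 member at 10 µM against 5 µM. Without probe sets ending in _x_at or _s_at 0 members were called at 5 µM and 0 at 10 µM against 0 µM, because ID1 and BMP4 are measured by such sets alone. Leaving out 1 array gave 1098 to 1187 genes at 5 µM and 762 to 1088 at 10 µM against 0 µM, and 156 (without 5 µM replicate 3) to 380 at 10 µM against 5 µM. The members called were then 2 to 2, 1 to 1 and 0 to 1, the 1 being ID2 without 5 µM replicate 1 and BMP4 without 10 µM replicate 2. Without 10 µM replicates 2 and 3 together, a setting chosen after seeing the data in which the lone array is assumed to vary like the others, 1 member was called at 10 µM against 5 µM. Equal array medians gave 721 genes higher and 443 lower at 5 µM (main 1011 and 155) and 458 and 475 at 10 µM (main 715 and 176), and quantile normalization 788 and 213, and 514 and 232.

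The changes of sign were all in differences that had not passed. BMP2 at 10 µM against 0 µM (main −0.01) was 0.0877 as the mean of its probe sets, 0.53 with the actin covariate and −0.0838 to 0.10 without 1 array. BMP2 at 5 µM was −0.0247 with equal array medians. SKIL was 0.42 at 5 µM and 0.65 at 10 µM as the mean of its probe sets, and 0.0447 at 10 µM after quantile normalization. SMAD6 at 10 µM against 0 µM was 0.0711 with array weights, 0.00657 after quantile normalization and −0.137 to 0.0503 without 1 array. Without 10 µM replicates 2 and 3 together, 10 µM against 0 µM gave 0.0543 for BMP4, 0.00733 for SMAD6 and 0.072 for SMAD7. SMAD7 at 10 µM against 5 µM was −0.007 to 0.231 without 1 array. The cause of these shifts was not tested.

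Replicate numbers recur across the doses, but same-numbered arrays deviated together only weakly (r of −0.0894 to 0.179 over genes), so they were not taken as pairs. With the replicate number as a block ID1 and BMP4 kept their calls at 5 µM (adjusted p = 0.000363 and 0.00356), and the TGFBR2 difference at 10 µM against 0 µM lost its adjusted p (0.0751).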
